A study of Homo sapiens and Homo sapiens
Mus musculus and Mus musculus with 9 samples.

Results

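A run of 7 unprocessed pseudogenes on chromosome 1 carries copies of protein-coding genes of the human mitochondrial genome. The members were chosen by name and chromosome: MTND1P23, MTND2P28, MTCO1P12, MTCO2P12, MTATP8P1, MTATP6P1 and MTCO3P12, which are 7 of the 41713 genes of the deposited table. They were set beside their 7 mitochondrial parent genes. RNA-Seq was run on C4-2B, a human prostate cancer cell line, cultured alone (3 libraries) and as a mixed co-culture with MC3T3-E1, a mouse osteoblast line, in a ratio of 1 to 30 (3 libraries), with both lines labelled wild type and kept in alpha-MEM with FBS. The remaining 3 libraries, of MC3T3-E1 alone, were not used here. Nothing in the labels says that the libraries came from separate cultures. The value used for each gene is the authors' mean, over both groups of C4-2B libraries together, of the read counts divided by size factors (mean count). It carries no replicate error, and the difference between co-culture and C4-2B alone is not analysed here. Human reads were separated by 3 pipelines, of which Xenome and XenofilteR listed all 7 members and Kallisto listed 0. Of all 41713 genes, 39193 had a Xenome value and 20359 had a Kallisto value.

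Mitochondria keep a small circular genome of their own, whose protein-coding genes all encode subunits of the respiratory chain or of ATP synthase. Fragments of this genome have been inserted into nuclear chromosomes during evolution, and the resulting copies are known as nuclear mitochondrial sequences. A recent copy still resembles the mitochondrial gene closely, so that short reads of the abundant mitochondrial transcripts and reads of the copy are hard to tell apart. The nuclear and mitochondrial genetic codes also differ, and a codon that the mitochondrion reads as tryptophan is a stop codon for cytosolic ribosomes.

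The block lies at chr1:629062-634922 (GRCh38, plus strand) and spans 5861 bases. All 7 members are single-exon models whose deposited coordinates are those of GENCODE release 44. In order, they are MTND1P23 (chr1:629062-629433), MTND2P28 (chr1:629640-630683), MTCO1P12 (chr1:631074-632616), MTCO2P12 (chr1:632757-633438), MTATP8P1 (chr1:633535-633741), MTATP6P1 (chr1:633696-634376) and MTCO3P12 (chr1:634376-634922). This is the order of the parents in the mitochondrial genome. The spacing is preserved as well, with 206 bases between MTND1P23 and MTND2P28 where the parents are 207 apart, 390 between MTND2P28 and MTCO1P12 where the parents are 392 apart, and 140 between MTCO1P12 and MTCO2P12 in both. MTATP8P1 and MTATP6P1 overlap by 46 bases, as MT-ATP8 and MT-ATP6 do, and MTATP6P1 shares its last base with MTCO3P12. The gene model ENSG00000230021 runs across the whole block on the minus strand, with exons inside 2 members, MTCO1P12 and MTCO2P12, and it had a mean count of 6.05 with Xenome.

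The sequence differences between copy and parent in GRCh38 are few, and they are what a read must cover to be placed. The sequences of C4-2B itself were not examined and may differ from GRCh38. For the 2 members with the highest levels, and for MTCO3P12 as a member with a low level, the 120 bases with the most differences to the parent are shown on the plus strand, 5′ to 3′, with the bases that differ in capitals. Copies are from chromosome 1 and parents from the mitochondrial genome, both of GRCh38. The stretches start at chr1:630009 (MTND2P28, 5 differences), chr1:633768 (MTATP6P1, 4 differences) and chr1:634598 (MTCO3P12, 6 differences).
MTND2P28: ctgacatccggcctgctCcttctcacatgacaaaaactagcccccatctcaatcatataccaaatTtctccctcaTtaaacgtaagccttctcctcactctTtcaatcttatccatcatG
MT-ND2: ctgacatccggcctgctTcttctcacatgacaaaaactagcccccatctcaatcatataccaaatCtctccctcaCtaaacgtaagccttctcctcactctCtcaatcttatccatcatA
MTATP6P1: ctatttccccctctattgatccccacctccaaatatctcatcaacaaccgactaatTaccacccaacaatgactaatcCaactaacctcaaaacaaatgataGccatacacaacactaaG
MT-ATP6: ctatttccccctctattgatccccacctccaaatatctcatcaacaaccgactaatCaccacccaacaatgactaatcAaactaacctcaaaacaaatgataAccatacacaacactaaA
MTCO3P12: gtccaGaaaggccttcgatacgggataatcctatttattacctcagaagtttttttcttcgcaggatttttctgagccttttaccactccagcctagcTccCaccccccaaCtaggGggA
MT-CO3: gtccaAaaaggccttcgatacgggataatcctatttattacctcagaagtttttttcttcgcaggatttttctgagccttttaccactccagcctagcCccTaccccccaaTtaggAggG

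The 46 bases that belong to 2 members at once hold a single difference to the mitochondrial sequence. They are shown because a read that covers any of them overlaps both gene models. A read of 50 bases is longer than this stretch and also covers bases outside it. The copy lies at chr1:633696-633741.
MTATP8P1 and MTATP6P1: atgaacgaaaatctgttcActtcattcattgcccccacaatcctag
MT-ATP8 and MT-ATP6: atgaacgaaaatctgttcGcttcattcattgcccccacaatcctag

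Over 5069 aligned bases, the members were 98.4% identical to their parents, with 81 mismatches and 9 gap positions. Bases shared by neighbouring members were counted for each member. The single difference in the 46 bases that MTATP8P1 and MTATP6P1 share therefore entered these totals for both. The identity was similar in all members, from 97.6% in MTATP8P1 to 98.7% in MTCO1P12. With another gap penalty, MTND1P23 was highest instead, at 98.9%. Of the mismatches, 74 were transitions and 7 were transversions, and 62 fell on the third position of a parent codon, 14 on the first and 5 on the second. Of the codons that differed, 64 kept the amino acid and 16 changed it under the mitochondrial code. MTND2P28, the copy of the complex I subunit gene MT-ND2, had 17 mismatches, all transitions, and 15 of the changed codons kept the amino acid while 2 did not. MTATP6P1, the copy of the gene for a membrane subunit of ATP synthase, had 10 mismatches, and 4 of its codons encoded another amino acid.

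Stop codons were counted in the codons aligned to the parent's reading frame, not in the copy's own frame. That frame shifts after the gaps of MTCO1P12 (1 gap position) and MTCO2P12 (2 gap positions). MTND1P23 had the most gap positions, 6. Counted so with the mitochondrial code, 6 of the 7 members held no stop codon before the parent's last codon, and MTND1P23 held 1. Read with the standard code of nuclear genes, all 7 members held stop codons. They ranged from 3, in MTND1P23, MTCO2P12, MTATP8P1 and MTATP6P1, to 16 in MTCO1P12. The total was 42, the same as in the aligned codons of the parents. Member and parent held the same number except for MTATP8P1 (3 against 2) and MTCO3P12 (4 against 5). MTND1P23 covers only 38.2% of MT-ND1, its 3′ part, and MTCO3P12 covers 69.8% of MT-CO3, its 5′ part. The remaining 5 members cover 99.7% or more of their parent. The longest run without a difference was 266 bases, in MTND2P28, and the shortest of these longest runs was 62 bases, in MTATP8P1.

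The levels of the members differed far more than their sequences. MTATP6P1 had the highest mean count with Xenome, at 10286, followed by MTND2P28 at 7763 and MTCO1P12, the copy of the catalytic subunit of cytochrome c oxidase, at 725. The remaining 4 were low: MTCO3P12 and MTCO2P12, copies of 2 further core subunits of that oxidase, at 43.9 and 22.0, MTATP8P1, the copy of a small ATP synthase subunit, at 18.1, and MTND1P23, the copy of a complex I subunit, at 6.76. The highest and the lowest member were 1522-fold apart. MTATP6P1 and MTND2P28 together held 95.7% of the summed mean count of the 7 members. Among the 39193 genes with a Xenome value, MTATP6P1 was above 98.2% of genes and MTND2P28 above 97.2%, whereas MTND1P23 was above 47.3%. MTATP6P1 and MTND2P28 ranked 1 and 2 among the 982 unprocessed pseudogenes.

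Divided by gene length, the mean count per kilobase with Xenome was 15104 for MTATP6P1, 7436 for MTND2P28 and 470.0 for MTCO1P12. It was 87.2 for MTATP8P1, 80.3 for MTCO3P12, 32.3 for MTCO2P12 and 18.2 for MTND1P23, an 831-fold span. The order was that of the mean counts except that MTATP8P1 moved above MTCO2P12 and, with Xenome, above MTCO3P12. With XenofilteR, MTATP8P1 was below MTCO3P12 per kilobase, at 59.7 against 65.9, so these 2 members have no settled order. High and low members were interspersed along the block. MTATP8P1 and MTCO3P12, which flank MTATP6P1 without a gap, were both among the low members. A read over the 46 bases that MTATP8P1 and MTATP6P1 share overlaps both models, and how such reads were counted is not known. Neither the strand setting nor the treatment of reads with several best positions is given in the sources used here.

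**Figure D1:**
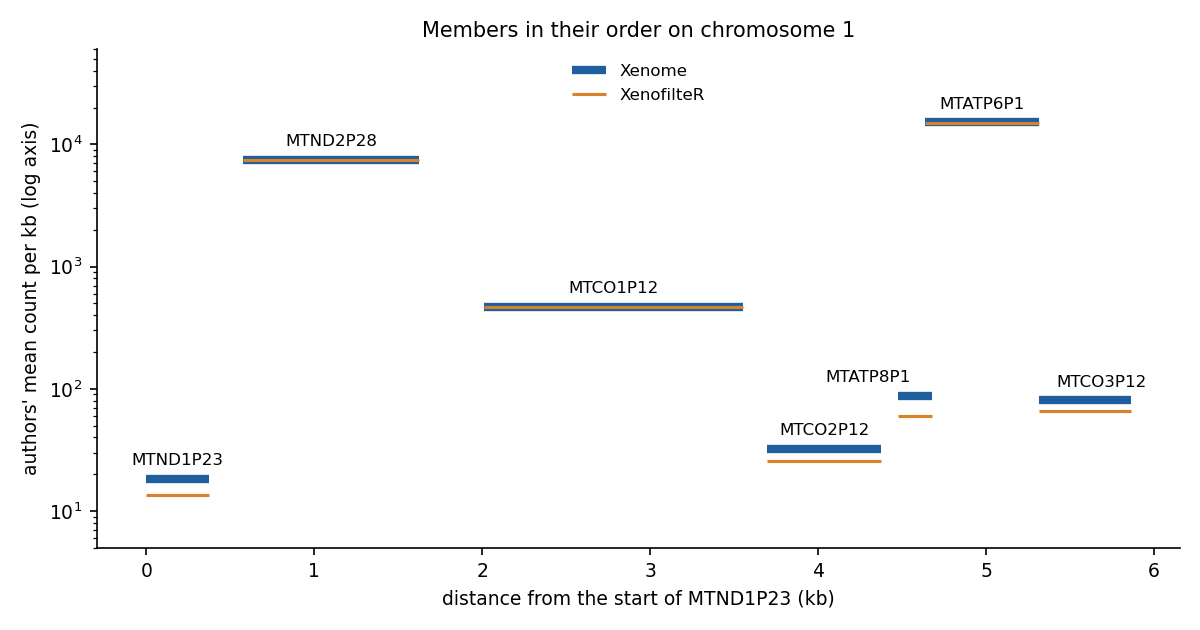
Mean count per kilobase (log axis) of each member, drawn as a line from the member's start to its end against the distance from the start of MTND1P23 in kilobases. Thick lines are Xenome and thin lines XenofilteR. MTATP6P1 (15104) and MTND2P28 (7436) stand above the others, and MTATP8P1 and MTCO3P12 on both sides of MTATP6P1 lie at 87.2 and 80.3.

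The parents did not show this spread. With Xenome, the mean count per kilobase of the 7 parents lay between 125074 (MT-ND2) and 282015 (MT-CO3), a 2.25-fold span. Per kilobase, MTATP6P1 reached 7.28% of MT-ATP6 and MTND2P28 reached 5.95% of MT-ND2. MTCO1P12 followed at 0.206% of MT-CO1. The low members were far below that, at 0.0361% for MTATP8P1, 0.0285% for MTCO3P12, 0.0156% for MTCO2P12 and 0.0125% for MTND1P23. The parent's level was therefore 13.7 times that of the copy for MTATP6P1 and 7993 times for MTND1P23. Summed over the members, the copies held 1.58% of the counts of copies and parents together. MT-ND2, the parent with the lowest level per kilobase, has a copy with the second highest level, so that the order of the copies was not that of the parents.

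**Figure D2:**
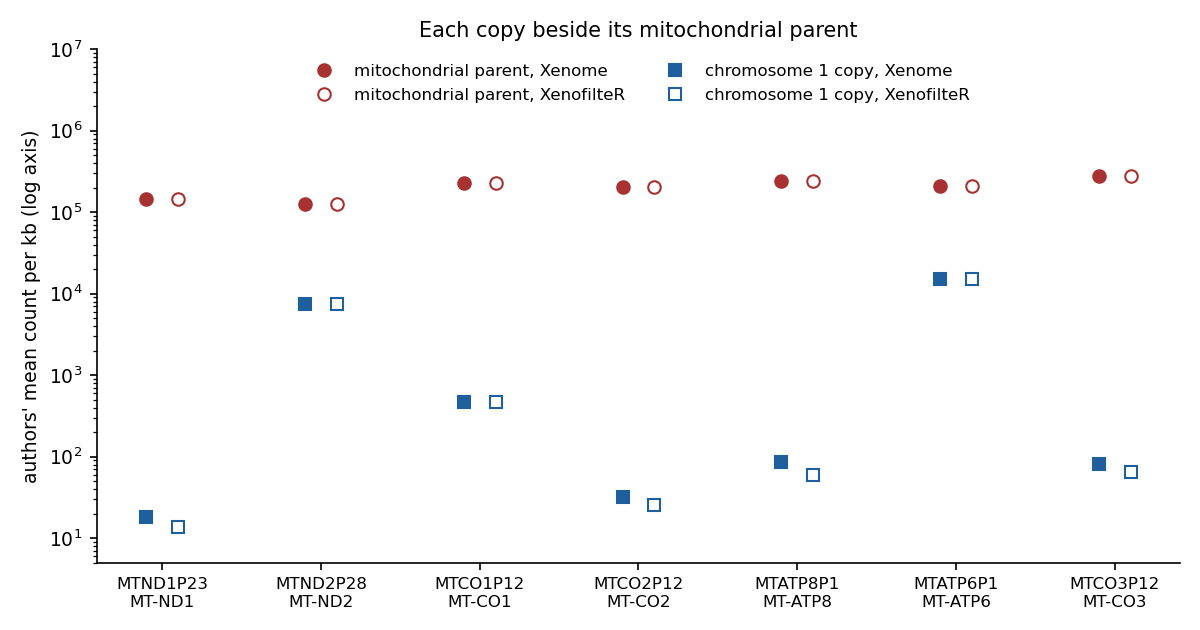
Mean count per kilobase (log axis) of the 7 chromosome 1 copies (squares) and of their mitochondrial parents (circles), with filled symbols for Xenome and open symbols for XenofilteR. The parents lie within a 2.25-fold range with Xenome, and the copies span 831-fold.

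Sequence that can be placed was measured as the share of 50-base windows, the length of a read, that occur at a single place in GRCh38. Over the 7 members, 52.8% of 4733 windows occurred once, and 44.1% also occurred, base for base, in the mitochondrial genome. MTATP8P1 had the highest share of windows found once, 91.8%, and MTND1P23 the lowest, 37.8%. High and low members overlapped in the number of windows found once, although the 2 members with the fewest, MTATP8P1 with 145 and MTND1P23 with 122, were both low. MTATP6P1 had 303 windows found once, MTCO2P12 had 343 and MTCO3P12 had 273, with mean counts of 10286, 22.0 and 43.9. MTND2P28 had 562 such windows and MTCO1P12 had 751, with mean counts of 7763 and 725. Per 1000 windows found once, the mean count with Xenome was 33947 for MTATP6P1, 13813 for MTND2P28 and 966 for MTCO1P12, and 161 for MTCO3P12, the highest of the low members. MTATP8P1 came to 125, MTCO2P12 to 64.2 and MTND1P23 to 55.4. Windows treat each end of a read pair on its own, and the effect of pairing was not tested. They are windows of GRCh38, and whether they occur once in the genome of C4-2B is not known.

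**Figure D3:**
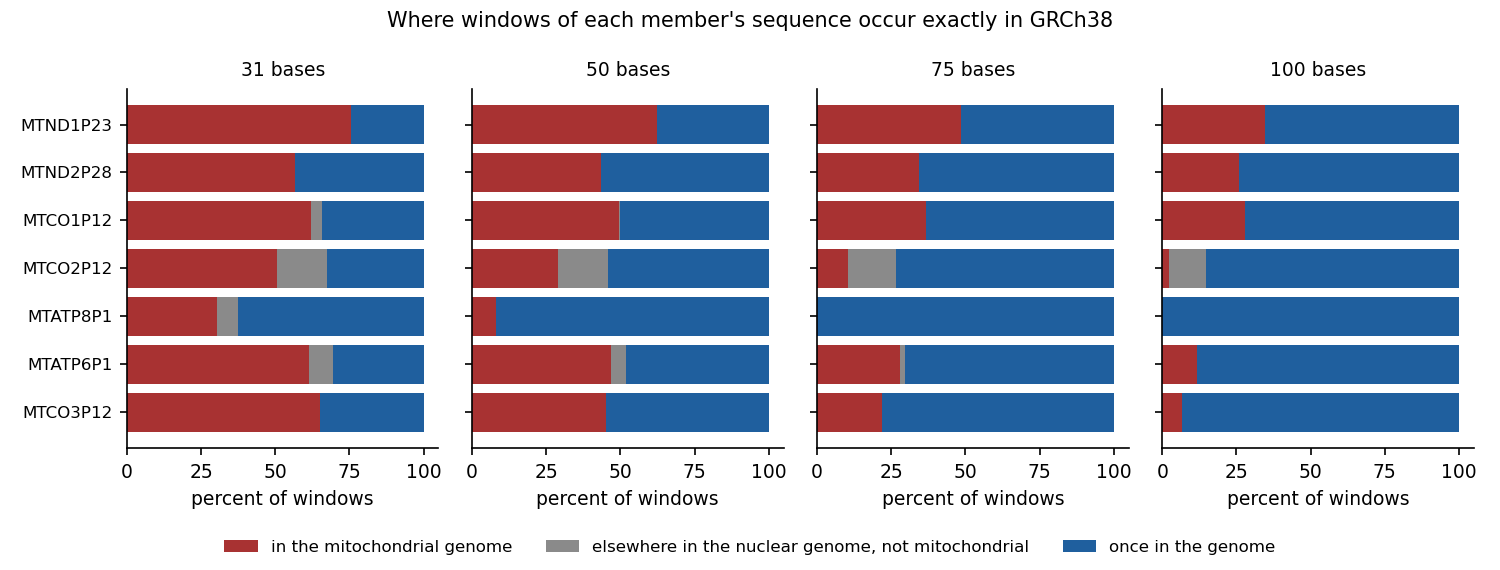
Percent of the windows of each member (rows) that occur in the mitochondrial genome, that occur elsewhere in the nuclear genome but not in the mitochondrial one, and that occur once in GRCh38, for windows of 31, 50, 75 and 100 bases (panels). With 50 bases, 8.23% of the windows of MTATP8P1 and 62.2% of those of MTND1P23 are mitochondrial.

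Of the 4733 windows of 50 bases and the 4866 windows of 31 bases, 0 occurred exactly in mouse transcripts (GENCODE release M21). Matches with mismatches and the mouse genome were not searched. XenofilteR and Xenome gave close values for the 3 high members and lower XenofilteR values for the 4 low ones. The XenofilteR mean count was 0.993 times the Xenome value for MTATP6P1, 0.998 times for MTND2P28 and 1.00 times for MTCO1P12. The 4 low members were at 0.684 (MTATP8P1), 0.746 (MTND1P23), 0.802 (MTCO2P12) and 0.820 (MTCO3P12). Across 14069 other genes whose mean count reached 50 in both pipelines, the median of this ratio was 1.00 and the 5th percentile was 0.983. Across 7634 other genes with a Xenome mean count of 5 to 50, 4.94% lay below the value of MTCO3P12 and 3.10% below that of MTATP8P1. Low ratios were also seen among the other nuclear copies of mitochondrial genes, of which 15 of 106 lay below MTCO3P12. In the range of 5 to 50 these were 3 of 9: MTCO1P40 (0.335) and MTCO2P2 (0.555), both named after their values were seen, and MTND6P4 (0.807). The cause of the lower values was not tested.

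For the 4 low members, the mean count could be written in 1 way as a sum of whole reads in 6 libraries (whether a pair counted as 1 read is not given in the sources used here). These libraries carry no label, so they are named A to F by falling size factor (5.93, 5.31, 4.86, 0.427, 0.145 and 0.109 with Xenome) and were put in no group. The lower size factors make single reads count for more: 1 read adds 0.169 normalized counts in library A and 9.18 in library F, where 3 reads, the limit that a count of 0 allows, amount to 27.6.

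MTCO3P12 had 294, 287, 519, 7, 4 and 1 reads in libraries A to F with Xenome. Divided by the size factors, these were 49.6 (exact Poisson 95% interval 44.1 to 55.6), 54.0 (47.9 to 60.6), 106.8 (97.8 to 116.3), 16.4 (6.60 to 33.8), 27.6 (7.53 to 70.7) and 9.18 (0.233 to 51.2) normalized counts. Library C was highest, and its interval overlapped none of the other 5. With XenofilteR the reads were 261, 254, 358, 6, 4 and 1, and library C was again highest, at 73.5 normalized counts (66.1 to 81.5), but its interval then overlapped that of library E (7.55 to 70.9). Without library C, the mean count with Xenome was 31.4 in place of 43.9.

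MTCO2P12 had 187, 132, 144, 4, 4 and 1 reads in libraries A to F with Xenome. The normalized counts were 31.6, 24.8, 29.6, 9.38, 27.6 and 9.18. The intervals of libraries A, B and C overlapped, and those of E (7.53 to 70.7) and F (0.233 to 51.2) covered all 3 values. Library D, at 2.55 to 24.01, lay below those of A and C with Xenome, but overlapped both with XenofilteR, where A was at 21.1 to 29.3 and C at 21.9 to 31.2.

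MTATP8P1 had 183, 142, 101, 2, 1 and 2 reads, or 30.9, 26.7, 20.8, 4.69, 6.91 and 18.4 normalized counts. With Xenome, library A (26.6 to 35.7) lay above library C (16.9 to 25.2), and library D (0.568 to 16.9) lay below A and B (22.5 to 31.5). With XenofilteR, the reads of libraries A to C summed to 300 rather than 426, and the 3 values came to 19.7 (16.3 to 23.6), 18.0 (14.6 to 22.0) and 17.9 (14.3 to 22.0), which overlapped, while D (0.0594 to 13.1) lay below all 3. The order of MTATP8P1 and MTCO3P12 per kilobase with Xenome turned when library A was left out (74.8 against 78.2) or library F (86.9 against 93.0), and held without any of the other 4.

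MTND1P23 had 69, 32, 21, 4, 0 and 1 reads with Xenome. Library A, at 11.6 normalized counts (9.06 to 14.7), lay above B at 6.02 (4.12 to 8.50) and C at 4.32 (2.67 to 6.60). The intervals of D at 9.38 (2.55 to 24.01) and F at 9.18 (0.233 to 51.2) covered the value of A. The 0 reads of library E allow up to 20.7 normalized counts by the limit of 3 reads, and 25.5 by the upper bound of the exact interval, so a level like that of library A was not detectable there. In all 4 members, libraries D to F together held at most 12 reads, and the intervals cover counting error only.

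**Figure D4:**
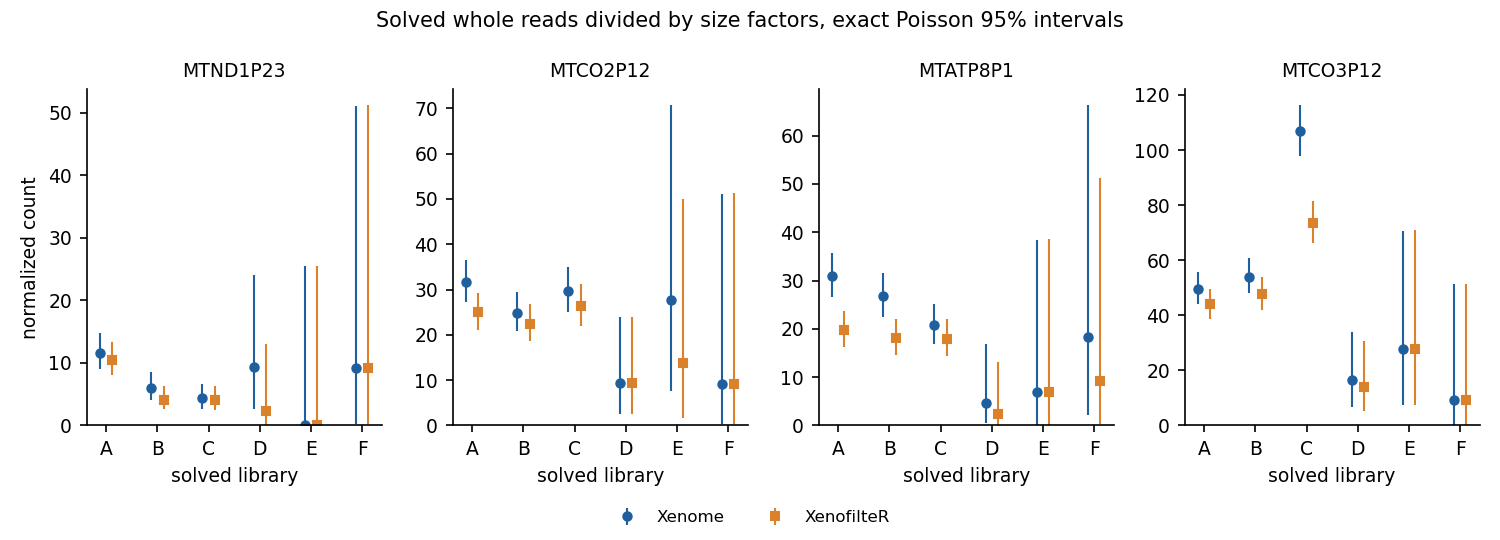
Normalized counts of the 4 low members in the 6 solved libraries A to F (x axis), with exact Poisson 95% intervals as bars, for Xenome (circles) and XenofilteR (squares). Library C of MTCO3P12 stands at 106.8 with Xenome, and the intervals of libraries E and F are the widest in each panel.

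The 3 high members stood above the remaining nuclear copies of mitochondrial genes, and the 4 low members did not. By symbol, 106 further copies on 21 chromosomes had a Xenome value, with a median of 0.597 mean counts per kilobase and a range of 0.0331 to 105. All 7 members were above that median, but only 6, without MTND1P23, were above the median of 30.2 of the 9 others whose mean count reached 10. The members were not filtered, and MTND1P23, with a mean count of 6.76, would not pass that filter itself. With and without the filter, 3 members (MTATP6P1, MTND2P28 and MTCO1P12) were above the highest of the others. The members held 97.6% of the summed mean count of all these nuclear copies. The highest others per kilobase were MTND4P20 on chromosome 10 (105) and 4 copies from a run on chromosome 5, MTND4P12 (93.4), MTND4LP30 (38.7), MTND5P11 (32.4) and MTND6P4 (30.2). MTATP8P1, MTCO3P12 and MTCO2P12 lie within the range of these 5, and MTND1P23, at 18.2, lies below it. Of the 106 others, 97 had no window of 50 bases in the mitochondrial genome, whereas all 7 members had such windows, from 8.23% (MTATP8P1) upwards. MTND6P4, at 18.0%, and MTCO2P2, at 14.2% and named after its value was seen, were above MTATP8P1 and below the other 6 members. Of the 97 others with a mean count below 10 that were solved in whole reads, 28 had 3 reads or fewer over all 6 libraries.

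Kallisto, which assigns reads to transcripts, listed none of the members and none of the 106 other copies, so the parents' values in that pipeline were set beside those of Xenome. This comparison was chosen after the values were seen. The Kallisto mean count was 1.45 times the Xenome value for MT-CO1, 1.40 times for MT-ND2 and 1.22 times for MT-ATP6, the parents of the 3 highest members. For MT-ND1, MT-CO2 and MT-CO3, parents of low members, it was 1.12, 1.10 and 1.10 times. MT-ATP8 was lower with Kallisto, at 0.716 times. For the 6 mitochondrial protein-coding genes with no copy in the block (MT-ND3, MT-ND4L, MT-ND4, MT-ND5, MT-ND6 and MT-CYB), the ratio lay between 0.881 and 1.05, so 6 of the 7 parents were above all 6 of them. Across 11593 genes whose mean count reached 50 in Kallisto and Xenome, the median ratio was 1.02 and the 95th percentile 2.23, and size factors differ between pipelines.

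MT-CO1, MT-ND2 and MT-ATP6, the parents with the largest ratios, also shared the most sequence with the nuclear genome. The order within these parents, and among the other parents, was not the same for both measures. Of the 50-base windows of MT-CO1, 50.6% also occurred in a nuclear chromosome, and the share was 46.7% for MT-ATP6 and 43.6% for MT-ND2. It was 30.9% for MT-CO3, 29.0% for MT-CO2, 25.6% for MT-ND1 and 8.23% for MT-ATP8, and at most 19.96% (MT-ND6) for the genes with no copy in the block. The counts listed for the copies were smaller than the gap between pipelines. With the copy's count added to the parent's in Xenome, the ratio was 1.32 for MT-ND2, 1.14 for MT-ATP6 and 1.45 for MT-CO1. What the shared sequence contributes to the ratio was not tested.

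**Figure D5:**
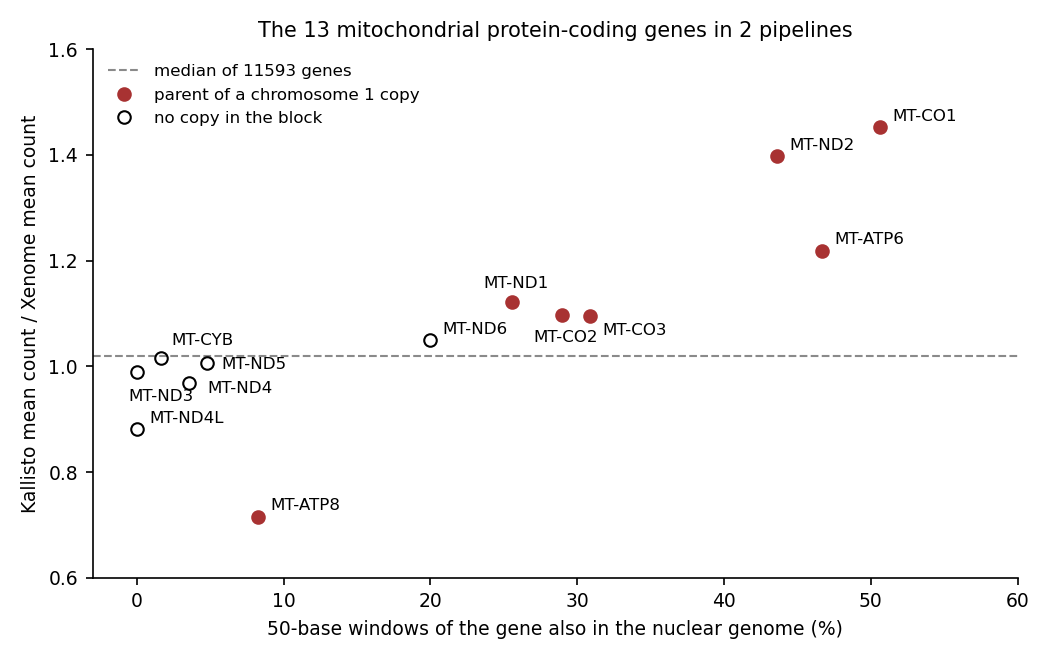
Kallisto mean count divided by Xenome mean count (y axis, linear) for the 13 mitochondrial protein-coding genes, against the percent of their 50-base windows also found in the nuclear genome (x axis). Filled circles are parents of a member, open circles are genes with no copy in the block, and the dashed line is the median of 11593 genes (1.02). MT-CO1, MT-ND2 and MT-ATP6 are highest on both axes, and MT-ATP8 is lowest in ratio.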

How the data were processed

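For Xenome, the authors kept human reads, used HISAT2 to align them to GRCh38 and featureCounts to count them by gene. For XenofilteR, reads were aligned to the human and mouse genomes and mouse reads were removed before counting. For Kallisto, human and mouse transcripts were quantified together. The libraries were made with a stranded kit and sequenced as 50 bp pairs to at least 40 M reads each. The featureCounts settings and the tools' versions are not given in the sources used here.

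The authors deposited 1 table of their comparison of co-culture and C4-2B alone with DESeq2. Per pipeline it holds a mean count (the mean over the 6 libraries of counts divided by size factors) and the authors' fold change, its error, statistic and p-values, 15 columns in all, which were not used. Of 41734 rows, 21 repeated a gene. Since only the pooled means were used, no test was run.

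The members and lists were chosen with earlier results of these data known. Genes named are the 7 members, their parents, the 6 other mitochondrial protein-coding genes and the 5 other nuclear copies with the highest level per kilobase. ENSG00000230021, MTCO1P40 and MTCO2P2 fall outside this rule and were named after their values were seen. Each copy was aligned whole to its parent plus 30 following bases (biopython 1.88, match 1, mismatch -1, gap open -5, extend -1). Windows were searched on both strands of 455 GRCh38 sequences. Whole reads were solved from the pooled means (tolerance 2e-13) for means up to 50. Of 2000 genes with a mean below 10, simulated with the size factors already found, 100% were recovered. This simulation does not test the size factors themselves. All 20014 Xenome genes with a mean below 10 had 1 solution. For means of 10 to 20, 20 to 30 and 30 to 50, all 30 genes drawn at random in each range and pipeline had 1 solution. Alternatives were XenofilteR, other window lengths, another gap penalty, no division by length and a minimum mean count of 10. Scripts ran in Python 3.11.15 with matplotlib 3.10.9, scipy 1.17.1, pandas 2.3.3, numba 0.67.0 and numpy 2.4.6.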

Additional observations from a re-analysis of the deposited data

How the results depend on the processing

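No paired analysis was possible because the deposited means pool the libraries of both groups and no result comes from a test. Leaving out each of the 6 solved libraries in turn, a choice made after the data were seen, gave Xenome mean counts of 31.4 (without C) to 50.9 for MTCO3P12, 20.1 to 24.6 for MTCO2P12, 15.5 to 20.7 for MTATP8P1 and 5.78 to 8.11 for MTND1P23. No library could be left out for the 3 high members. The share of the members' windows found once in the genome was 52.8% with 50 bases, 35.8% with 31, 67.9% with 75 and 78.8% with 100 bases. The median of the other nuclear copies rose from 0.597 to 30.2 mean counts per kilobase when the 9 copies with a mean count of at least 10 were kept, and 6 rather than 7 members were then above it, while 3 were above the highest copy either way. The member then below it, MTND1P23, would not pass this filter itself. With XenofilteR in place of Xenome, the members' share of the counts of copies and parents was 1.57% rather than 1.58%. Without division by length, MTND1P23 was at 0.00487% of its parent rather than 0.0125%, and MTCO3P12 at 0.0199% rather than 0.0285%. Another gap penalty (open -2, extend -0.5) changed the alignment of MTND1P23 alone, to an identity of 98.9%, then the highest of the members. Kallisto listed no member, so its means gave no alternative for them. Divided by XenofilteR in place of Xenome, a choice made after the data were seen, the parents' median Kallisto ratio stayed at 1.12. For the 3 high members and the parents no spread between libraries is known, the solved libraries of the low members carry no group, and reads of near-identical copies may be counted under another gene.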
